A study of Homo sapiens with 6 samples.

Results

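The cytosolic ribosomal protein genes encode the proteins of the cytoplasmic ribosome. They were taken from the deposited gene table by symbol: names beginning RPL or RPS followed by a number, with an optional A or X, together with RPLP0, RPLP1, RPLP2 and RPSA. The rule found 77 of the 38637 genes in the table, of which 46 belong to the large subunit and 31 to the small subunit. It used names alone and no measured value. RNA was sequenced from OVCAR8, a single established human ovarian cancer cell line with a wild type genotype according to its labels. Cells were given either the vehicle DMSO or 2 nM pladienolide B, and both groups were collected at 72 h, with 3 samples in each group. Pladienolide B binds the SF3B complex of the U2 snRNP, which recognises the intron branch site, and blocks the early steps of splicing. The libraries were made from polyA RNA, and nothing states that the 3 samples of a group came from separate cultures, so the p-values measure only the spread between these samples, which may be technical.

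The ribosome is built in the nucleolus, the nucleoplasm and the cytoplasm: RNA polymerase I transcribes the ribosomal RNA precursor, snoRNPs modify it, and many assembly factors guide the proteins onto it. Ribosomal protein mRNAs are short and abundant, and most begin with a 5′ terminal oligopyrimidine (5′TOP) tract, a C at the cap followed by a run of C and T bases, through which mTORC1 and LARP1 control their translation and stability. Their genes are short and rich in introns, and many of those introns hold snoRNAs.

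To show that shared start, 30 bases around the listed start of transcription were read from the RefSeq promoter table (GRCh38.p14), 10 before the start and the rest from it onwards. A tract here is a C followed only by C or T, on the gene's own strand, beginning within 5 bases of the listed start. An entry was found for 62 members. The windows below were chosen because they belong to 5 of the members that fell most, to 3 members that did not pass the test, and to RPS29, a member that fell and whose window held no such tract of 5 bases. Capitals mark the tract.
RPS3, chr11:75399508-75399537, plus strand: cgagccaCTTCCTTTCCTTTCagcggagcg
RPS18, chr6:33272065-33272094, plus strand: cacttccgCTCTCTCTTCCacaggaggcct
RPS12, chr6:132814559-132814588, plus strand: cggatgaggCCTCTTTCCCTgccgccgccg
RPLP0, chr12:120201092-120201121, minus strand: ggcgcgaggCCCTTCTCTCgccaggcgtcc
RPL36, chr19:5690285-5690314, plus strand: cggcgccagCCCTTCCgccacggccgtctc
RPS14, chr5:150449720-150449749, minus strand: ccctcccaCTCTCTCTTTCCggtgtggagt
RPL11, chr1:23691796-23691825, plus strand: gctccgCTTTCTCTTCCTgctctccatcat
RPL3, chr22:39319604-39319633, minus strand: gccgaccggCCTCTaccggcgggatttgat
RPS29, chr14:49598691-49598720, minus strand: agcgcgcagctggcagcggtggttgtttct

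A tract of at least 8 bases was present in 44 of the 62 members (71.0%), against 5.91% of 12136 other genes tested. Among all 27305 gene symbols with an entry, members included and a single entry taken per symbol, the share was 5.39%. At a minimum of 5 bases the shares were 85.5% of the members, 22.2% of the other genes tested and 21.0% of all symbols with an entry. The share with at least 8 bases was 71.1% among large-subunit members and 70.8% among small-subunit members. The tract marked members that fell and members that did not: it was present in 27 of the 35 matched members that were lower in pladienolide B (77.1%) and in 17 of the 27 that did not pass the test (63.0%). In the small subunit the median log2 fold change was -0.24 with a tract of at least 8 bases and -0.11 without one. The large-subunit medians were -0.11 and -0.10. As single genes at the extremes, RPS14, which had a tract of 12 bases, had a log2 fold change of 0.08, while RPS29, with no tract of that kind, had -0.36. These matches describe the letters of the windows only.

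Depth and identity were checked first. The samples had between 22621338 and 26130882 reads on genes. PAX8, KRT8, KRT18 and EPCAM, markers of ovarian epithelial tumours, were read in every sample, while the markers CDH1, MUC16 and WT1 of the same list had at most 40 reads in any sample. The leukocyte and fibroblast markers PTPRC, CD3E, MS4A1 and DCN had at most 2 reads in any sample, whereas CD68 averaged 1146 adjusted reads and COL1A1 6800 in DMSO. Of the same lists PDGFRB had 169 to 283 reads, COL1A2 17 to 79, CD14 5 to 19 and PDGFRA at most 9, and the endothelial markers PECAM1, VWF and CDH5 had at most 45. DMSO replicate 2 stood apart: the chi-square per degree of freedom between samples of its group was 6.87 and 6.79 for the pairs that include it and 1.98 for the other pair. In pladienolide B the pairs gave 3.05 to 4.56. Values without that sample are therefore given for the groups of genes below and for each gene named there whose call it changed.

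After pladienolide B, many ribosomal protein mRNAs were modestly lower, more so in the small subunit. Without DMSO replicate 2 the large-subunit median log2 fold change was -0.04, close to the -0.01 of all genes. The small-subunit median in that fit was -0.14. Among the 46 large-subunit genes 22 were lower, 0 were higher and 24 did not pass the test, with a median log2 fold change of -0.11 (range -0.39 to 0.07). Among the 31 small-subunit genes 23 were lower, 0 were higher and 8 did not pass, with a median of -0.20 (range -0.39 to 0.08). The largest fall, that of RPL36, left 76.4% of the DMSO level, and 0 of the members changed 2-fold. Calls are from limma on log2(adjusted reads + 1), with a Benjamini-Hochberg adjusted p below 0.05 over all 16178 genes tested. All 77 members passed the filter on low values, and the lowest value in any sample was 3641 reads, for RPL28. Of all genes tested, 25.2% were called lower and 22.4% higher, and their median log2 fold change was -0.00. At an unadjusted p below 0.05, 0 large-subunit and 0 small-subunit genes were higher by limma, and edgeR's quasi-likelihood test and DESeq2 also called 0 higher at an adjusted p below 0.05. edgeR called 22 large-subunit and 23 small-subunit genes lower, beside 24.9% of all genes. In RNA from a whole culture, fewer cells of a type and less RNA per cell cannot be told apart, and each value is relative to the rest of the mRNA in its sample.

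Every pladienolide B sample lay below every DMSO sample for 26 large-subunit and 24 small-subunit genes, 50 of the 77 members, where this held for 28.8% of all genes tested. The opposite order was found for 0 members, against 26.4% of all genes. The fold change was below 0 for 40 of the 46 large-subunit and 30 of the 31 small-subunit genes, against 8186 of all 16178 genes tested. Without DMSO replicate 2 it was below 0 for 30 of the 46 and 27 of the 31, against 8199 of all genes tested.

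DMSO replicate 2 moved with this result. It was the highest DMSO sample for all 77 members, against 41.1% of all genes tested, and the highest of the 6 samples for 75 of them, against 22.0%. Without it, 20 large-subunit genes were lower and 3 higher, the median log2 change being -0.04, and 23 small-subunit genes were lower and 1 higher, with a median of -0.14. In the same fit 25.0% of all genes were lower and 23.5% higher. The 4 higher genes were RPL5, RPL15, RPL23 and RPS14, which are named because the count is small. In this fit RPL15 was at 0.07 and RPL23 at 0.12 (log2, limma adjusted p = 0.048 and 0.014), and RPL5 and RPS14 are described below. The small-subunit fall was thus present without that sample, while the large-subunit median came close to that of all genes (-0.01 in this fit). The part of this library in the result beyond these values was not tested.

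**Figure D1:**
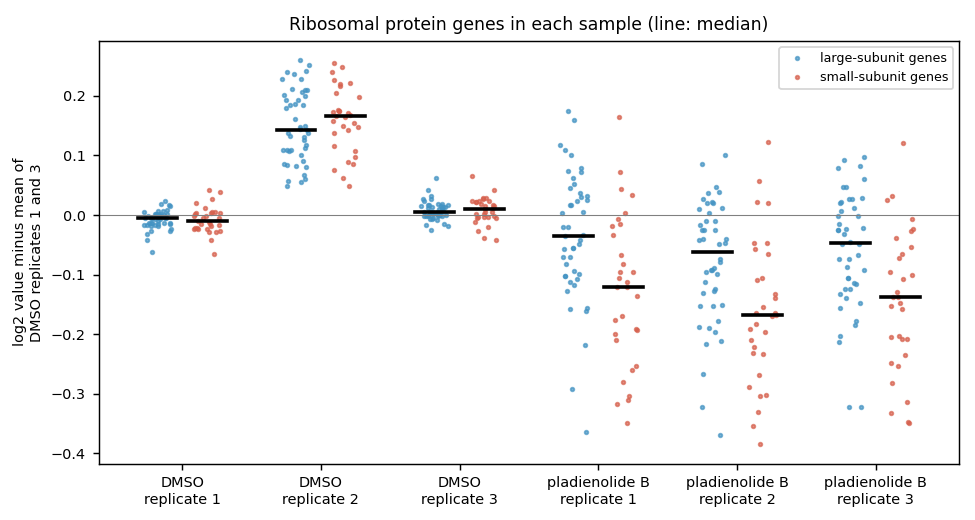
Each point is a ribosomal protein gene in a sample, as its log2 value minus the mean of DMSO replicates 1 and 3 for that gene (y axis), for the 6 samples (x axis), with large-subunit genes in blue, small-subunit genes in red and the median as a black line. DMSO replicate 2 lies above the other DMSO samples for all 77 members, and the small-subunit medians lie below the large-subunit medians in the 3 pladienolide B samples.

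The ratio of the subunits gave the same order within each sample. Reads on small-subunit genes amounted to 66.0%, 67.2% and 66.3% of the reads on large-subunit genes in DMSO replicates 1 to 3, and to 61.7%, 61.9% and 62.0% in pladienolide B replicates 1 to 3. The groups did not overlap, also with DMSO replicate 2, the highest, left out. Large-subunit genes took 3.26%, 3.49% and 3.28% of all reads on genes in DMSO and 3.23%, 3.15% and 3.21% in pladienolide B. The shares of small-subunit genes were 2.15%, 2.35% and 2.18% in DMSO and 1.99%, 1.95% and 1.99% in pladienolide B. The lowest DMSO sample and the highest pladienolide B sample thus lay close together for the large subunit (3.26% and 3.23%) and further apart for the small subunit (2.15% and 1.99%). These shares are given as a description, without a test. The members together took 5.40%, 5.84% and 5.46% of reads in DMSO and 5.22%, 5.09% and 5.20% in pladienolide B. Another 31 genes of the table are ribosomal protein pseudogenes by name, and they held at most 0.00853% of the reads of a sample, so reads assigned to these copies were few.

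**Figure D2:**
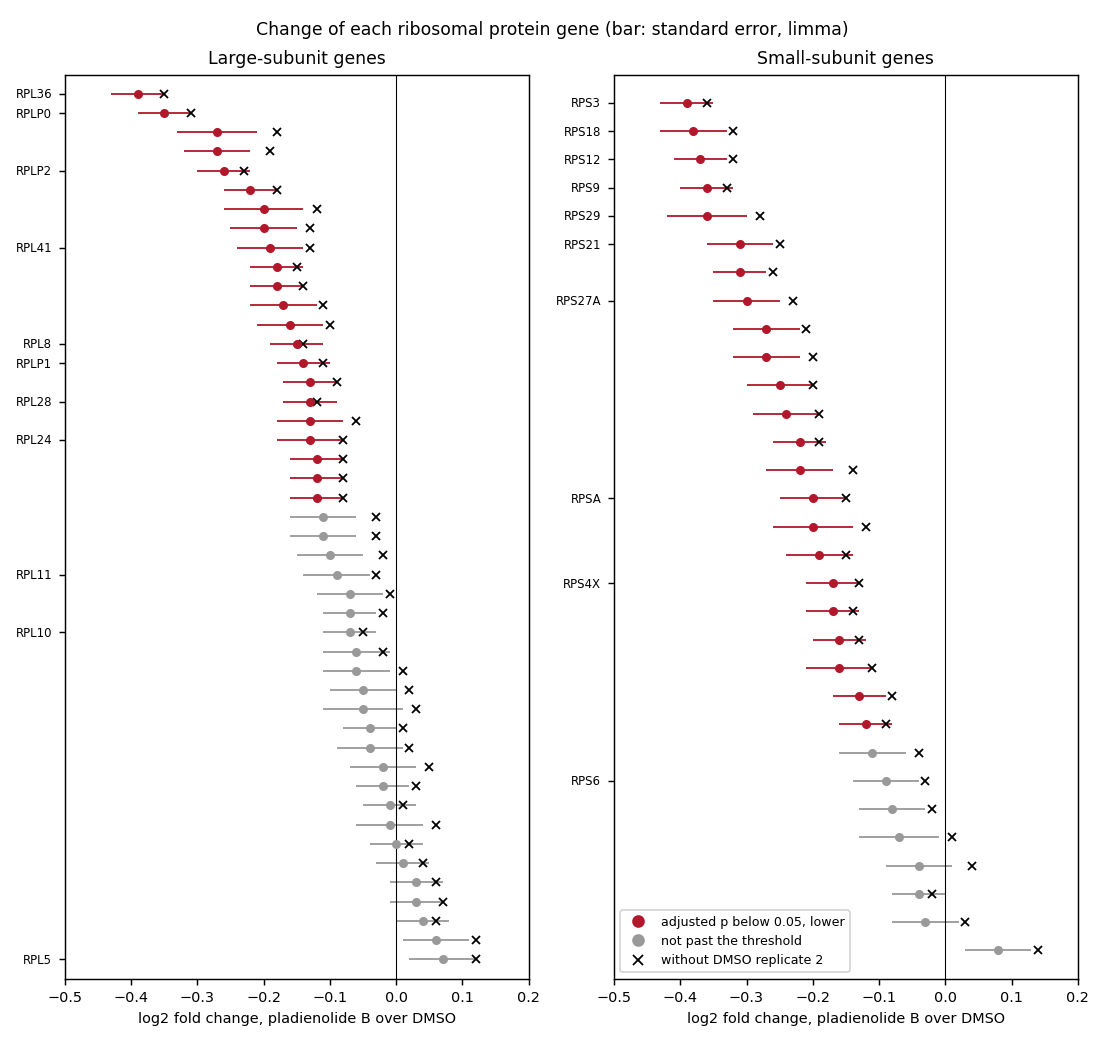
The log2 fold change of each member, pladienolide B over DMSO (x axis), with its standard error, for the large-subunit genes (left) and small-subunit genes (right) in order of change. The members with an entry on the y axis are those of the rule for named genes. Red points are lower with an adjusted p below 0.05, grey points did not pass, and crosses give the value without DMSO replicate 2. 22 of 46 large-subunit and 23 of 31 small-subunit points are red.

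Several of the larger falls were in genes for proteins of the small-subunit head. RPS3, which lines the mRNA entry channel, had 37163, 39119 and 37100 adjusted reads in DMSO replicates 1 to 3 and 29158, 28432 and 29195 in pladienolide B. All 3 treated samples were below all DMSO samples, with a log2 fold change of -0.39 (SE 0.04, limma adjusted p = 7e-07), which is 76.6% of the DMSO level. RPS18, a head protein that contacts the large subunit, had 40633, 46584 and 42285 adjusted reads in DMSO and 33584, 32949 and 32928 in pladienolide B. The groups were again apart, with a log2 fold change of -0.38 (SE 0.05, limma adjusted p = 6.1e-06). RPS12, at the beak of the head, had 13043, 14557 and 13437 adjusted reads in DMSO and 10673, 10732 and 10395 in pladienolide B. Its log2 fold change was -0.37 (SE 0.04, limma adjusted p = 3.3e-06). RPS29, a small zinc-binding head protein, had 5792, 7230 and 6338 adjusted reads in DMSO and 4986, 4906 and 5101 in pladienolide B, DMSO replicate 2 being the highest. Its log2 fold change was -0.36 (SE 0.06, limma adjusted p = 9.1e-05) and -0.28 without that sample. RPS27A, made as a fusion with ubiquitin, fell by 0.30 on the log2 scale (SE 0.05, limma adjusted p = 0.00018), from 16529 ± 1496 to 13386 ± 439 adjusted reads (SD, n = 3 in each group). RPS27A overlaps MTIF2 and CLHC1 on the opposite strand, and whether reads were assigned by strand is not given in the sources used here. Of 14 head proteins, grouped after the values were seen, 12 were lower and the median log2 change was -0.22, against 11 of 17 and a median of -0.19 for the remaining small-subunit proteins. Without DMSO replicate 2 the counts were 12 of 14 and 11 of 17 again, with medians of -0.17 and -0.14. With the trend on transcript length removed from each sample, as described below, 8 of 14 and 10 of 17 were lower (medians -0.17 and -0.14). Among all genes tested 25.2% were lower, and 24.1% with that trend removed. The 2 head genes that did not pass with all samples and the trend kept were RPS15 (-0.04) and RPS28 (-0.08).

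Outside the head, RPS9, which also lies at the mRNA entry channel, had 10814, 11706 and 11258 adjusted reads in DMSO and 8853, 8633 and 8878 in pladienolide B. Each treated sample was lower than each DMSO sample, with a log2 fold change of -0.36 (SE 0.04, limma adjusted p = 1.8e-06). RPS21 had 6359, 7156 and 6308 adjusted reads in DMSO and 5289, 5186 and 5482 in pladienolide B, for a log2 fold change of -0.31 (SE 0.05, limma adjusted p = 5.9e-05). RPSA, which is also known as the laminin receptor, fell less: 41592, 47506 and 43134 adjusted reads in DMSO became 38971, 37307 and 38486, with a log2 fold change of -0.20 (SE 0.05, limma adjusted p = 0.0024). RPS4X, encoded on the X chromosome, fell by 0.17 (log2, SE 0.04, limma adjusted p = 0.0037).

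RPS6, the substrate of the S6 kinases, did not pass the test. It had 26026, 28563 and 24583 adjusted reads in DMSO and 25190, 24308 and 24892 in pladienolide B. The groups overlapped, and the log2 fold change was -0.09 (SE 0.05, limma adjusted p = 0.15). RPS14, a protein of the platform that is deleted in the 5q- form of myelodysplasia, was the small-subunit gene with the highest fold change. Its adjusted reads were 14053, 15853 and 14095 in DMSO and 15767, 15313 and 15303 in pladienolide B, so that only DMSO replicate 2 exceeded the treated samples. The log2 fold change was 0.08 (SE 0.05, limma adjusted p = 0.18) in all samples and 0.14 without DMSO replicate 2 (limma adjusted p = 0.00088). Over the 16 alternatives its adjusted p ranged from 0.00088 to 0.5.

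In the large subunit, the acidic stalk that recruits translation factors stood among the lower genes, with 3 of its 3 proteins lower. Among all genes tested 25.2% were lower. RPLP0, the base of the stalk, had 43697, 47573 and 44491 adjusted reads in DMSO and 35994, 35279 and 35247 in pladienolide B. The groups were apart by more than the spread of either, with a log2 fold change of -0.35 (SE 0.04, limma adjusted p = 4.3e-06). RPLP2 had 11306, 11984 and 11301 adjusted reads in DMSO and 9722, 9391 and 9747 in pladienolide B, for a log2 fold change of -0.26 (SE 0.04, limma adjusted p = 4.7e-05). RPLP1 changed less, from 19357 ± 794 to 17524 ± 478 adjusted reads (SD, n = 3 in each group), with a log2 fold change of -0.14 (SE 0.04, limma adjusted p = 0.0095). The stalk was grouped after the values were seen, and without DMSO replicate 2 its 3 genes were lower too, with a median log2 change of -0.23.

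RPL36 had the largest fall of the large subunit, with 9232, 9855 and 9043 adjusted reads in DMSO and 7100, 7075 and 7306 in pladienolide B. Its log2 fold change was -0.39 (SE 0.04, limma adjusted p = 1e-06) and -0.35 without DMSO replicate 2. Its annotated span overlaps that of LONP1 on the opposite strand by 42 bases, and LONP1 had a log2 fold change of -1.22, so a share of the reads cannot be assigned with certainty. RPL41, the shortest ribosomal protein, fell by 0.19 (log2, SE 0.05, limma adjusted p = 0.0038). RPL8, the member with the most reads, fell by 0.15 (log2, SE 0.04, limma adjusted p = 0.0061), from 60034 ± 1185 to 53975 ± 1392 adjusted reads (SD, n = 3 in each group). RPL24, the member with the fewest, changed by -0.13 on the log2 scale (limma adjusted p = 0.04), and passed the test in 5 of 16 alternatives. It did not pass without DMSO replicate 2 (-0.08, limma adjusted p = 0.11, with a range of 0.025 to 0.74 over the alternatives). Per kilobase of the canonical transcript, RPS18 was highest in DMSO at 3169 CPM per kilobase and RPL28 lowest at 41.9 (CPM, counts scaled to a common library total). The canonical transcript of RPL28 is 4209 bases long, far above the median of 785 for the members, so its level per length rests on that model. RPL28 had a log2 fold change of -0.13 (SE 0.04, limma adjusted p = 0.013).

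The proteins that carry the 5S rRNA, RPL5 and RPL11, which also bind MDM2 when free of the ribosome, did not pass the test. RPL5 had 32902, 36034 and 32623 adjusted reads in DMSO and 36608, 35138 and 35069 in pladienolide B. Of the DMSO samples only replicate 2 reached the treated ones, and the log2 fold change was 0.07 (SE 0.05, limma adjusted p = 0.19). Without that sample RPL5 was higher by 0.12 (log2, limma adjusted p = 0.0021), and its adjusted p ranged from 0.00061 to 0.5 over 16 alternatives. RPL11 had 11891, 14005 and 12612 adjusted reads in DMSO and 12275, 11914 and 11862 in pladienolide B, which overlap, with a log2 fold change of -0.09 (limma adjusted p = 0.14). RPL10, which joins the subunit late in its maturation, had a log2 fold change of -0.07 (SE 0.04, limma adjusted p = 0.13), although its 3 treated samples (19230, 19334 and 19232) were below its DMSO samples (19844, 21068 and 19952). RPL3, at the peptidyl transferase centre, had 37027, 38758 and 36998 adjusted reads in DMSO and 38189, 36770 and 37695 in pladienolide B, for a log2 fold change of -0.00 (SE 0.04).

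The calls that held in every fit were a smaller set. Across the 16 alternatives, 8 large-subunit and 14 small-subunit genes were lower each time. The large-subunit genes included RPL8, RPL21, RPL27A, RPL30, RPL36, RPLP0 and RPLP2. The small-subunit genes included RPS3, RPS9, RPS12, RPS13, RPS18, RPS19, RPS20, RPS21, RPS23, RPS24, RPS27A and RPS29. The strictest fit was limma without a variance trend, in which 8 large-subunit and 14 small-subunit genes were lower, beside 21.4% of all genes. The share of all genes lower in every alternative was not counted. It can be at most that 21.4%, because every gene so called is also lower in that fit.

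Transcript length moved with the excess in DMSO replicate 2. The members are short, with a median canonical transcript of 785 bases against 3173 for all genes tested. Among other genes, the median log2 difference between DMSO replicate 2 and the other DMSO samples went from 0.11 under 800 bases to 0.08, 0.03, 0.00 and, from 6000 bases, -0.04. Members were above other genes of like length in each class, at 0.17 under 800 bases (39 members) and 0.17 from 800 to 1500 bases (21 members). The fold change of pladienolide B over DMSO had medians of -0.08 and -0.03 for other genes in these 2 classes and of -0.19 and -0.09 for members. With the trend on length removed from each sample, 16 large-subunit genes were lower and 2 higher (median log2 fold change -0.05), and 18 small-subunit genes were lower and 0 higher (median -0.15), beside 24.1% of all genes in each direction. The part of length in the result beyond these values was not tested.

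**Figure D3:**
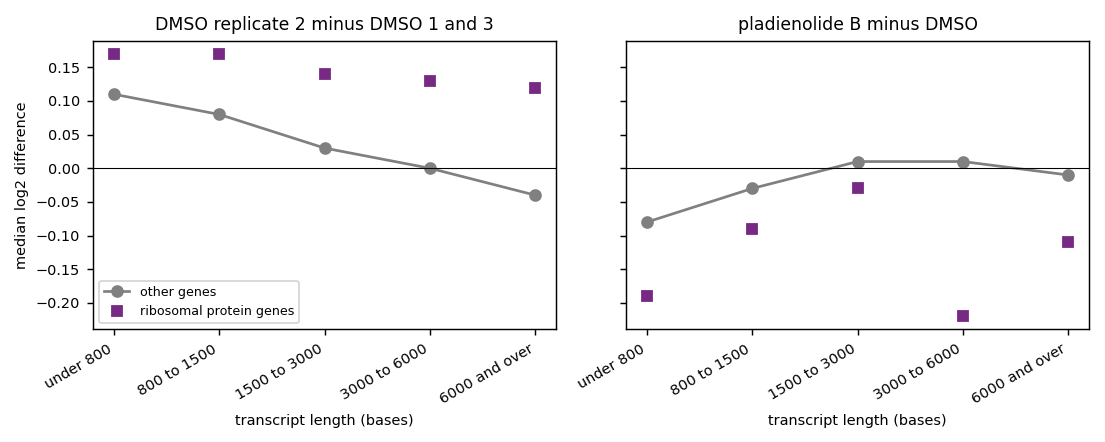
Median log2 difference (y axis) by canonical transcript length in bases (x axis) for ribosomal protein genes (squares) and other genes (circles), for DMSO replicate 2 against the other DMSO samples (left) and for pladienolide B against DMSO (right). The excess in DMSO replicate 2 is 0.11 for other genes under 800 bases and -0.04 from 6000 bases. The 2 classes of the longest transcripts hold only 3 and 2 members.

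The change was also set beside features of the genes. Across the 46 large-subunit genes the Spearman correlation of the log2 fold change with the number of exons was 0.18, and across the 31 small-subunit genes it was -0.12. With transcript length it was 0.28 and 0.40, and with the level in DMSO 0.09 and -0.10. These correlations are across genes that share the same 6 libraries and are given as descriptions. Of the large-subunit genes with a snoRNA annotated inside them 10 of 19 were lower, and of those without one 12 of 27. In the small subunit the counts were 8 of 9 and 15 of 22. Leaving out DMSO replicate 2 gave 10 of 19, 10 of 27, 8 of 9 and 15 of 22. Among all genes tested 25.2% were lower, and 25.0% without that sample.

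Several ribosomal proteins have a paralog encoded by a separate gene, and the pair can be set against each other within a sample. RPL22L1, the paralog of RPL22, fell: its mean went from 528 ± 88.5 to 328 ± 12 adjusted reads (SD, n = 3 in each group), a log2 fold change of -0.67 (SE 0.10, limma adjusted p = 3.3e-05). RPL22 itself had a log2 fold change of -0.04 (limma adjusted p = 0.54). Adjusted reads on RPL22L1 were 5.18%, 5.99% and 4.97% of those on RPL22 in DMSO and 3.57%, 3.44% and 3.33% in pladienolide B. The log2 ratio differed by -0.64, and the groups did not overlap. RPL39L also fell, with a log2 fold change of -0.40 (SE 0.11, limma adjusted p = 0.0056), and its log2 ratio to RPL39 differed by -0.20. In the other direction RPL7L1, an assembly factor in spite of its name, rose by 0.19 (log2, SE 0.05, limma adjusted p = 0.0028), and its log2 ratio to RPL7 differed by 0.35. RPL36AL had a log2 fold change of 0.09 (limma adjusted p = 0.25), and its log2 ratio to RPL36A differed by 0.29, with 38.6%, 37.8% and 36.6% in DMSO and 47.2%, 47.4% and 43.5% in pladienolide B. Without DMSO replicate 2 RPL36AL was higher by 0.17 (log2, limma adjusted p = 0.0037), and over the 16 alternatives its adjusted p ranged from 0.00032 to 0.69, passing in 3. The other 5 tested paralogs kept their side of the threshold without that sample, RPL22L1 at -0.54, RPL39L at -0.34, RPL7L1 at 0.23, RPL26L1 at -0.03 and RPS27L at -0.08. Each of the ratios of RPL22L1, RPL39L, RPL7L1 and RPL36AL gave an exact two-sided permutation p of 0.1, the smallest that 3 against 3 samples allow, and 0.15 after adjustment over the 6 pairs, so this design cannot pass a threshold of 0.05. RPL26L1 to RPL26 differed by -0.08 (exact permutation p = 0.2) and RPS27L to RPS27 by 0.03 (exact permutation p = 0.5). RPL26L1 and RPS27L had log2 fold changes of -0.13 and -0.18 (limma adjusted p = 0.13 and 0.074). RPL3L had at most 5 reads in a sample and RPL10L at most 1, and neither was tested. Near-identical copies can share reads, so the split between a gene and its paralog is uncertain to that extent. RPL36A also overlaps RPL36A-HNRNPH2 by 5145 bases on the same strand, and that gene had a log2 fold change of -0.11. How reads in that overlap were assigned is not given in the sources used here, so the ratio of RPL36AL to RPL36A is uncertain there.

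Ribosomal proteins under other names were examined too. FAU, which encodes a small-subunit protein fused to a ubiquitin-like one, had a log2 fold change of -0.05 (limma adjusted p = 0.45), and RACK1, a scaffold at the small-subunit head, one of -0.10 (limma adjusted p = 0.057). Without DMSO replicate 2 RACK1 had a log2 fold change of -0.07 and passed as lower (limma adjusted p = 0.036, with a range of 0.036 to 0.19 over 16 alternatives), while FAU was at 0.01 (limma adjusted p = 0.75).

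Most assembly factor genes that passed the test were higher, unlike the ribosomal protein genes. Of 42 large-subunit assembly factors tested, 28 were higher and 4 lower, with a median log2 fold change of 0.22. RRS1, which brings the 5S particle into the large subunit, rose most, by 0.64 (log2, SE 0.08, limma adjusted p = 6.4e-06). WDR18, of the rixosome complex, fell most, by 0.83 (log2, SE 0.07, limma adjusted p = 3.8e-08). Among 48 small-subunit assembly factors tested, 32 were higher and 5 lower, with a median of 0.28, from UTP14A at 0.76 (limma adjusted p = 3e-08) to BUD23, an rRNA methyltransferase, at -0.56 (limma adjusted p = 2.1e-07). The 9 snoRNP proteins had 5 higher and 1 lower (median 0.21), with NOLC1 at 0.43 and FBL, the methyltransferase of box C/D snoRNPs, at -0.16. Of 15 RNA polymerase I genes 7 were higher and 2 lower (median 0.11), with the initiation factor RRN3 at 0.60 and TAF1D at -0.22. Of 8 dedicated chaperones of ribosomal proteins 5 were higher and 1 lower (median 0.19), with RPS19BP1 at 0.41 and HEATR3 at -0.43. The shares of all genes called, given above, were 22.4% higher and 25.2% lower. Without DMSO replicate 2 the counts higher became 32 of 42, 36 of 48, 6 of 9, 9 of 15 and 6 of 8, and the counts lower 4, 4, 1, 1 and 1.

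Translation factors and other mRNAs listed as carrying a 5′TOP tract were mixed. By the tract rule used above, 10 of them had a promoter entry. Of these 10, 9 held a tract of at least 5 bases and 5 one of at least 8. Of 18 tested, 2 were higher and 8 lower, with a median log2 fold change of -0.09, from EIF4B at 0.16 (limma adjusted p = 0.0065) to NAP1L1 at -0.45 (limma adjusted p = 1.2e-07). With DMSO replicate 2 left out, 4 were higher and 10 lower, and the median was -0.10. The shares of all genes tested were 22.4% higher and 25.2% lower, and 23.5% and 25.0% without that sample. Among 12 genes of mTORC1 and its control of 5′TOP mRNAs, 2 were higher and 7 lower (median -0.14), beside the same shares. EIF4EBP2, an inhibitor of cap-dependent initiation, rose by 0.64 (log2, limma adjusted p = 1.5e-08), and TSC2, the GTPase-activating protein that restrains mTORC1, fell by 1.09 (log2, limma adjusted p = 7e-11). LARP1, which binds the 5′TOP tract, had a log2 fold change of -0.04 (limma adjusted p = 0.53). Without DMSO replicate 2 it passed as lower, at -0.09 (limma adjusted p = 0.028, with a range of 0.028 to 0.94 over 16 alternatives), and 1 of the 12 genes was higher and 8 lower, with a median of -0.15.

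Mitochondrial ribosomal protein genes were taken by symbol, MRPL or MRPS followed by a number, and genes under other names were not counted. Of the 77 tested, 24 were higher and 14 lower (31.2% and 18.2%), with a median log2 fold change of 0.07. Among all genes tested 22.4% were higher and 25.2% lower. Without DMSO replicate 2 the counts were 35 higher and 8 lower, with a median of 0.11, beside 23.5% and 25.0% of all genes. MRPL2 rose by 0.49 (log2) and MRPL32 fell by 0.91, a wider range than that of the cytosolic genes. These mitochondrial genes took 0.417% to 0.448% of reads in DMSO and 0.454% to 0.463% in pladienolide B, where the cytosolic members took a smaller share than in DMSO.

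**Figure D4:**
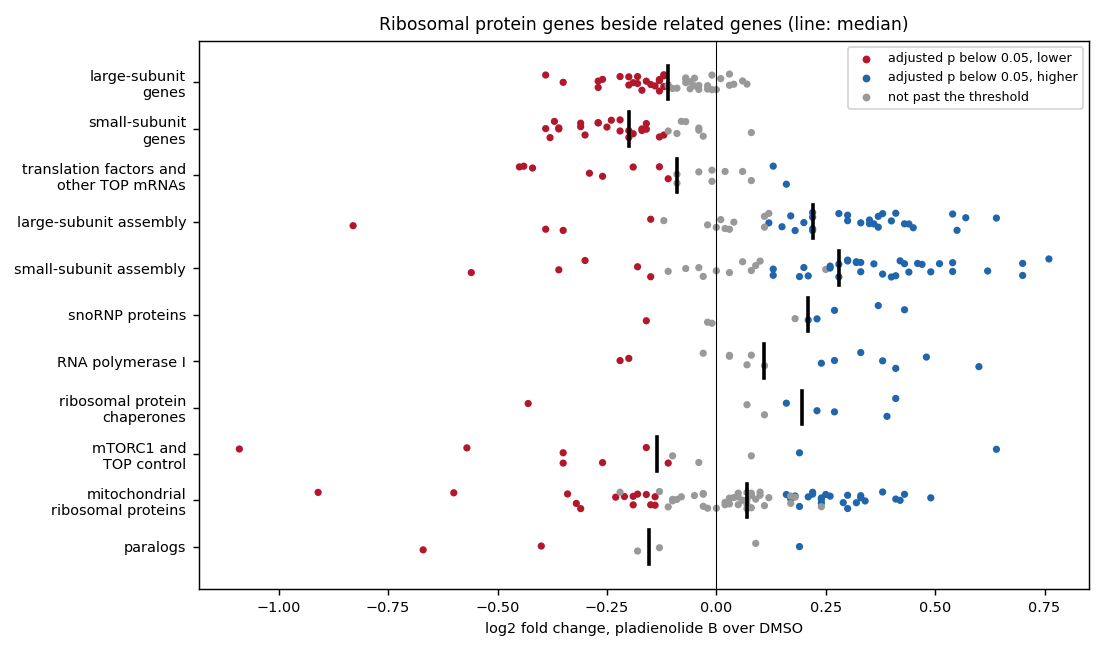
The log2 fold change, pladienolide B over DMSO (x axis), of each tested gene in the lists named on the y axis, with the median as a black line and points coloured by call (blue higher, red lower, grey not past an adjusted p of 0.05). Medians are -0.11 and -0.20 for the large- and small-subunit genes, and 0.22 and 0.28 for the assembly factors of each subunit.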

How the data were processed

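The authors trimmed reads, aligned them to hg38 with hisat2 and used DESeq2, as their methods state. The submitters' processing notes name HISAT2, HTSeq 0.12.4, DESeq2 and hg19. All 77 members lie where GRCh38 has them. Strand-specific counting is not given in the sources used here. The deposited values per sample are a signal: counts adjusted by the authors to equal library sizes, in the form of edgeR's quantile adjustment (common dispersion 0.0027). Inverting it gave whole reads: 99.995% of 96432 values at or above 10 came out within 0.02 of a whole number, and adjusting the reads again returned the deposited values within 4.9e-05. The depth was 22621338 to 26130882 reads on genes, and intervals from counts would cover counting error only. The log2 fold changes, p-values and q-values that the authors computed for their own comparison and deposited in the table were not used.

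Because the values are adjusted, limma 3.58.1 was run on log2(value + 1), with a variance trend, two-sided, and p-values were adjusted by Benjamini-Hochberg over the 16178 genes kept by filterByExpr (at least 10 in 3 samples and 15 in total). Fold changes are on that scale, where the pseudocount makes those of low genes smaller. edgeR 4.0.16 (quasi-likelihood, TMM or RLE) and DESeq2 1.42.0 were run on the recovered reads as alternatives, with other filters, a pseudocount of 0.1, no variance trend, a replicate block and each sample left out. Removal of the trend on length (known for 93.1% of the genes tested) was chosen after seeing the data. The fits were tested on simulated data. Paralog ratios were tested by exact permutation. Members and lists were chosen with earlier results of these data known. Genes named are the 8 largest falls and rises that passed (0 rose), members and paralogs of known role, and the extremes of each list; RPL3, RPS14, RPS15, RPS28, RPL22, LARP1, the genes given as called in every alternative and the 4 higher without DMSO replicate 2 were chosen after their values were seen. Exons, lengths and snoRNAs are from GENCODE's canonical transcripts. The values of a few genes are not reported here.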

Additional observations from a re-analysis of the deposited data

How the results depend on the processing

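Of 736 values under alternatives for 46 genes, members and others, fixed by the rule for named genes, 704 kept their side of the threshold, 21 lost the call, 11 gained it and 0 reversed. Many of these genes were picked for a large change that passed, so this count favours stable calls. Other members with small falls passed less often: RPL12 and RPL13A in 9 of 16 alternatives, RPL19 and RPS16 in 7, and RPL27 in 6. RPL27 had a log2 fold change of -0.13 with all samples (limma adjusted p = 0.042). Without DMSO replicate 2 it did not pass, at -0.06 (limma adjusted p = 0.1). As given above, 8 large-subunit and 14 small-subunit genes passed in all. Without the variance trend, limma called 8 large-subunit and 14 small-subunit genes, all lower, beside 21.4% of all genes lower. Leaving out each sample in turn gave 14 to 23 large-subunit and 21 to 24 small-subunit genes called; 14 to 22 and 21 to 24 of them were lower, and 0 to 3 and 0 to 1 higher. The fewest large-subunit calls came without pladienolide B replicate 2 (14, all lower), and the higher calls only without DMSO replicate 2. The median log2 fold change over these fits ranged from -0.14 to -0.04 for the large and from -0.23 to -0.14 for the small subunit, with -0.04 and -0.14 without DMSO replicate 2. With the trend on length removed, 2 large-subunit genes were higher and the large-subunit median was -0.05; with DMSO replicate 2 also left out, 5 large-subunit and 2 small-subunit genes were higher, and the medians were -0.01 and -0.12. The cause of these shifts was not tested. The replicate numbers are shared between the groups, but the deviations of same-numbered samples correlated at -0.018, -0.017 and 0.003. Samples of unlike number gave -0.035 to 0.048. Whether same-numbered samples shared a culture or a batch is not stated, and these correlations cannot settle it. The replicate block gave 16 large-subunit and 22 small-subunit genes, all lower. Shares of all genes called were not counted for the replicate block, nor with the length trend and DMSO replicate 2 both removed. Among the fits that left out a sample they were counted only without DMSO replicate 2, at 25.0% lower and 23.5% higher. The member counts of the remaining fits therefore have no background beside them. Leaving out the 10 most abundant genes raised the share of reads on the members to 5.69%, 6.16% and 5.75% in DMSO and 5.51%, 5.38% and 5.48% in pladienolide B. With 3 samples a group the exact test of a ratio cannot go below 0.1.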
